A study of Mus musculus with 2 samples.

Results

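The expression of 10 genes of the Wnt signalling pathway was measured in single cycling cells of the mouse corneal epithelium. The set held the ligands Wnt4, Wnt7a, Wnt7b and Wnt10a, the receptor Fzd6, the secreted Wnt binder Sfrp1, beta-catenin (Ctnnb1), the transcription factors Tcf7l1 and Tcf7l2, and Axin2, a target gene and inhibitor of the pathway. These were 10 of the 31053 genes in the count matrix, listed by symbol. None of them took part in sorting the cells into classes.

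The study concerned Sox9 and cell fate in the corneal epithelium, and it deposited single-cell counts from 2 samples of 1 group. Both came from CycB1-GFP mice, in which a green fluorescent protein reports Cyclin B1, a cyclin that builds up before mitosis. Corneal epithelium was peeled off, dissociated, and live GFP-positive cells were sorted onto a droplet platform that counts the 3′ ends of RNA molecules by unique molecular identifiers (UMIs). All cells therefore carried the reporter and passed the same gate, and neither GFP-negative cells nor another genotype were measured. The ages of the mice are not given, and nothing states that the samples came from separate animals. The p-values of the main fits therefore measure only how far differences between groups of cells, taken within a library, varied between these 2 libraries.

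Wnt ligands are secreted proteins that bind Frizzled receptors on nearby cells. In the branch that runs through beta-catenin, receptor binding stops the breakdown of beta-catenin, which enters the nucleus and acts with TCF/LEF factors to switch on target genes. Axin2 is one of those targets and encodes a scaffold of the complex that destroys beta-catenin, so it is widely read as a report of pathway activity and also limits it. The cornea is renewed from the limbus, the ring at its edge, where Krt15 and Gpha2 mark basal cells, while Krt12 is the keratin of the corneal epithelium proper.

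Promoter windows are shown for the target gene Axin2, whose level differed between cell classes, and for Tcf7l2, because among the members' windows its second start site alone held a TCF/LEF motif. RefSeq start sites on GRCm38.p6 gave 8 windows of 250 bases upstream for 6 of the 10 members. Wnt7b, Wnt10a, Fzd6 and Sfrp1 had no entry. The Axin2 window was chr11:108920099-108920348 on the plus strand, and the Tcf7l2 window was chr19:55895071-55895320 on the plus strand, each written 5′ to 3′ and ending at the base before the start site. Capitals mark a motif match.
Axin2: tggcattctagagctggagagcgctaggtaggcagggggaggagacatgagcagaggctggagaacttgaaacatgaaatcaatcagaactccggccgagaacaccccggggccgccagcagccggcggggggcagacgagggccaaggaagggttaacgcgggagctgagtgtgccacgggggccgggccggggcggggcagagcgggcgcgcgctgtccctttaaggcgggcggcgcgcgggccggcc
Tcf7l2, second start: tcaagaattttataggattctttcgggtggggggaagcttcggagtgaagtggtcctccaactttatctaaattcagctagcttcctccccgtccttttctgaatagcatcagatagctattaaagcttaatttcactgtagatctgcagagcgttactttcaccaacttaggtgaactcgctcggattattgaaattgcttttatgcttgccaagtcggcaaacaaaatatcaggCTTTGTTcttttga
The motifs searched on both strands were CTTTGAA or CTTTGAT or CTTTGTA or CTTTGTT, each 7 bases long, and they share their first bases. The Tcf7l2 match began 14 bases before the start site. Of all 32851 mouse promoter windows of this length, 14.8% held at least 1 match, so 1 window of 8 is close to that share. The Axin2 window had no match, which says only that these letters are not in these bases. The Axin2 window was 69.2% G or C with 24 CpG sites, and the Tcf7l2 window 40.8% with 7, against a median of 52.4% G or C over all windows. The Axin2 gene lies on chromosome 11 from 108920349 to 108950783 on the plus strand, and Tcf7l2 on chromosome 19 from 55741820 to 55933654 on the plus strand, in the annotation of GRCm38.

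The matrix held 3458 and 3294 cell barcodes in libraries 1 and 2, of which 3187 and 3001 had at least 500 genes and under 20% mitochondrial UMIs and were kept. Kept cells gave 18773893 and 17796678 UMIs, with medians of 5571 and 5886 per cell. The libraries shared 5 barcode sequences. Krt5, a basal keratin of stratified epithelia, had a UMI in 99.7% and 99.5% of cells, and the Cyclin B1 gene Ccnb1 in 47.6% and 46.2%. The libraries are numbered as the barcodes number them, and no source used here links these numbers to the labelled replicates.

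Cells with at least 5 UMIs of Krt12 and Krt15 together were divided by the Krt12 share of that sum. Cells above 0.8 formed the corneal class (2304 and 1821 cells in libraries 1 and 2) and cells from 0.4 to 0.8 the mixed class (161 and 164). Cells under 0.4, the Krt15-dominant cells, were split by 2 or more Gpha2 UMIs and by 3 or more UMIs of the mucosal keratins Krt4, Krt13 and Krt19 together. This gave the Gpha2 class (294 and 450), the Krt4/13/19 class (120 and 158), a class with both marker sets (110 and 244) and the Krt15-only class with neither (139 and 107), while 59 and 57 cells stayed without a class. A conjunctival marker list (Krt4, Krt13, Krt19 and Krt8) was summed in counts per 1000000 UMIs of the class (CPM). It gave 2886 and 5327 CPM in the Krt4/13/19 class, and between 109 and 112 in the corneal class. The first 3 genes also chose the Krt4/13/19 class, so its sum there is largely set by the rule. A limbal list (Gpha2, Krt15, Ifitm3 and Cd63), of which Gpha2 and Krt15 also chose classes, gave 12416 and 17578 CPM there. In the Gpha2 class the limbal list gave 7504 and 9981 CPM. Of 4 goblet-cell genes, Muc5ac, Tff1 and Spdef had 0 UMIs in each class of both libraries, and Agr2 stood at 87.7 and 137 CPM in the Krt4/13/19 class, 41.7 and 54.2 in the Gpha2 class and 3.68 and 6.15 in the corneal class. In each class, immune, keratocyte, melanocyte, vascular and Schwann-cell lists summed to at most 7.54 CPM.

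UMIs over kept cells numbered 15306 for Wnt4, 12810 for Sfrp1, 8619 for Ctnnb1, 2767 for Tcf7l2, 2544 for Wnt10a, 2143 for Fzd6, 980 for Wnt7b, 954 for Tcf7l1 and 118 for Axin2. Capture near the 3′ end is not scaled by length and differs between genes, so these totals do not rank the genes by abundance. Wnt7a, a ligand linked to corneal epithelial identity, had 0 UMIs in all barcodes and was the only member under 50 UMIs, that is, sparse. Having none in 6188 cells, Wnt7a may have a UMI in up to 0.0485% of cells, and 0 counts allow up to 0.160 CPM in library 1 and 0.169 CPM in library 2. All limits of this kind and all intervals on counts cover counting error only.

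Classes were compared on UMIs summed per library and class, with 12 sums in 1 edgeR quasi-likelihood fit that held library as a block and left 5 residual degrees of freedom. Of the 10 members 9 were tested, among 9390 genes. In the Gpha2 class against the corneal class, 4 members were higher (Axin2, Wnt10a, Sfrp1, Ctnnb1) and 2 were lower (Fzd6, Wnt4) at an adjusted p under 0.05, where 15.1% of all genes tested were higher and 13.9% lower (29.0% either way). In the Krt15-only class against the corneal class 3 members were higher (Axin2, Ctnnb1, Sfrp1) and 2 lower (Wnt4, Fzd6), against 8.30% and 7.25% of all genes (15.5% either way). In the Krt4/13/19 class against the corneal class 1 member was higher (Ctnnb1) and 4 were lower (Wnt10a, Fzd6, Wnt4, Sfrp1), against 15.7% and 12.5% of all genes (28.2% either way). In the mixed class 1 was higher (Sfrp1) and 1 lower (Wnt4), against 4.78% and 2.95% of all genes (7.73% either way). These 4 comparisons share the corneal sums, so their similar entries are not independent of each other. The members and classes were chosen with earlier results of these data known, and Axin2 passed the low-count filter only through sums where it was high. The counts of members called are therefore not read as a result about the set.

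Between classes of Krt15-dominant cells, 4 members were higher in the Gpha2 class than in the Krt4/13/19 class (Wnt10a, Sfrp1, Tcf7l2, Axin2) and 0 lower, against 8.0% and 9.82% of all genes (17.8% either way). The Gpha2 and Krt15-only classes differed in few genes, 0.149% higher and 0.298% lower (0.447% either way), and Wnt10a was 1 of the 14 that were higher. The median log2 fold change of the 9 members tested was 0.30 in the Gpha2 class against the corneal class and -0.37 in the Krt4/13/19 class against it. The median over all genes was 0.00464 and -0.00351 there, with an upper quartile of 0.28 in the first and a lower quartile of -0.37 in the second. Against the corneal class the members' median was 0.18 in the Krt15-only class and 0.09 in the mixed class. For the Gpha2 class it was 0.06 against the Krt4/13/19 class and 0.11 against the Krt15-only class.

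**Figure D1:**
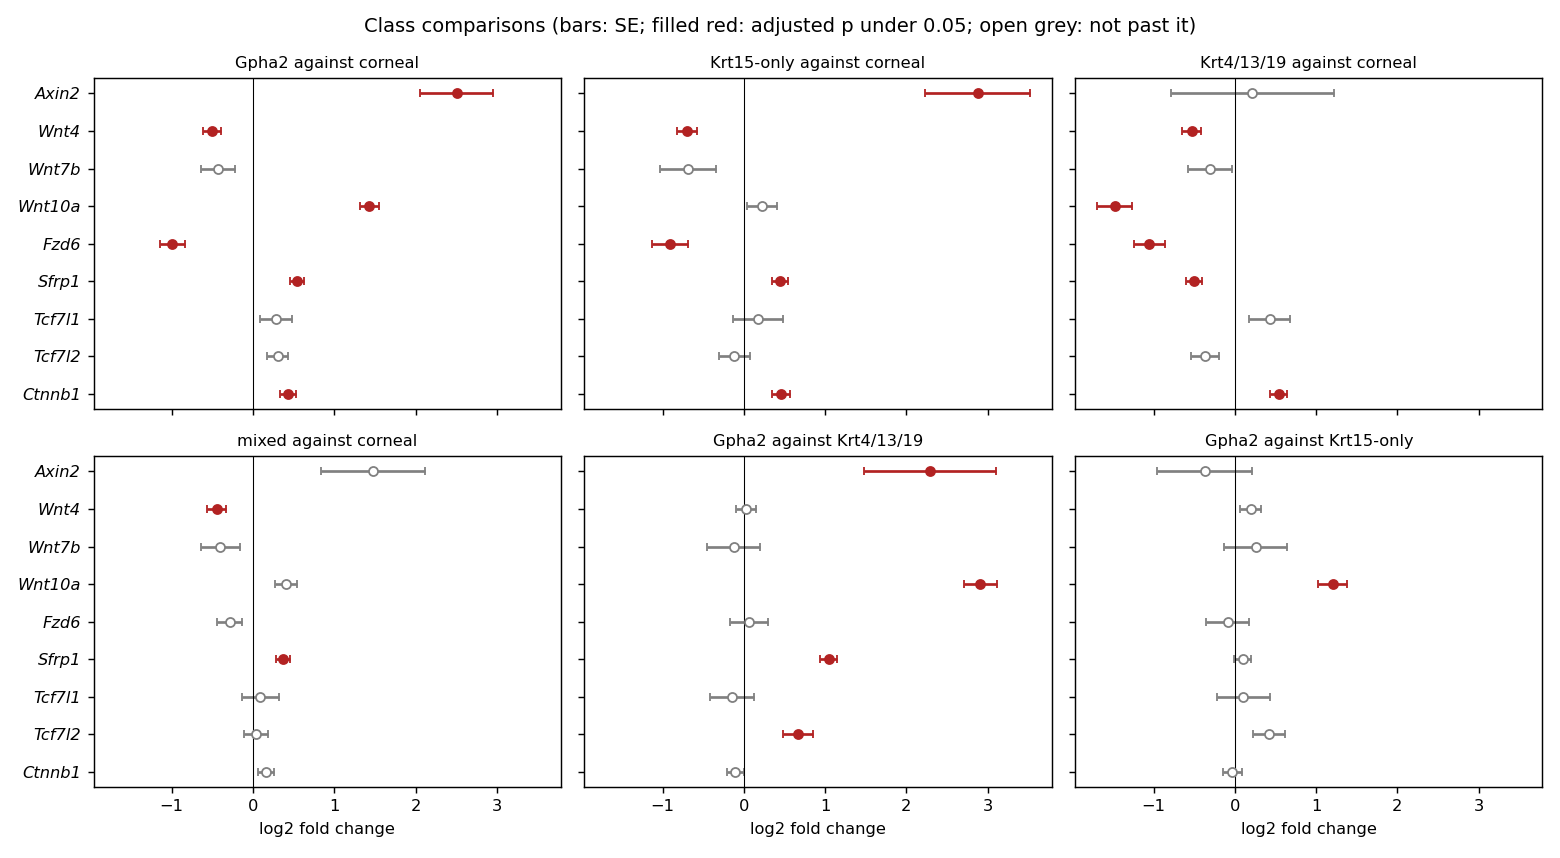
Log2 fold changes (x axis) of the 9 members tested (y axis) in 6 comparisons of cell classes, 1 per panel. Points are edgeR estimates from 2 libraries, bars are SE, and filled red points passed an adjusted p of 0.05. Axin2 and Wnt10a have the highest values in the Gpha2 class against the corneal class (2.51 and 1.43), while Fzd6 and Wnt4 lie below 0 there.

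Axin2 gave 8 UMIs in 294 cells of the Gpha2 class in library 1, or 5.38 CPM (exact 95% Poisson interval 2.32 to 10.6), and 29 UMIs in 450 cells in library 2, or 13.6 CPM (9.08 to 19.5). The Krt15-only class held 9 and 4 UMIs, or 13.4 CPM (6.14 to 25.5) and 10.9 CPM (2.97 to 27.9). The corneal class, with many more cells, held 25 and 17 UMIs, or 1.81 CPM (1.17 to 2.67) and 1.47 CPM (0.858 to 2.36). Both libraries of the Gpha2 and Krt15-only classes lay above both corneal libraries, although the intervals of library 1 overlapped for the Gpha2 class. The Krt4/13/19 class had 2 and 1 UMIs (2.74 and 1.20 CPM), the class with both marker sets 3 and 8 (4.16 and 4.72 CPM), and the mixed class 5 and 6 (4.23 and 5.31 CPM). With so few molecules the order of these last classes cannot be read.

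The Axin2 fold change of the Gpha2 class over the corneal class was 2.51 ± 0.45 on the log2 scale (SE, n = 2 libraries, edgeR adjusted p = 3.32e-05), but the libraries differed, with 1.50 in library 1 alone and 3.16 in library 2 alone. For the Krt15-only class it was 2.88 ± 0.65 (edgeR adjusted p = 0.00131), with 2.82 and 2.80 in the single libraries. Axin2 passed the filter on low counts only through the sums where it was high, namely the Gpha2 sum of library 2 and both Krt15-only sums, and with no filter the adjusted p-values were 4.96e-07 and 0.000255. Against the Krt4/13/19 class, the Gpha2 class was 2.29 ± 0.82 higher (edgeR adjusted p = 0.0453), a call that rests on 3 UMIs in the Krt4/13/19 class and passed in 3 of 8 alternatives (adjusted p 0.0376 to 0.148). Single libraries gave 0.93 and 3.43 there. Axin2 did not pass in the mixed class against the corneal class (1.48 ± 0.64, edgeR adjusted p = 0.181) or in the Krt4/13/19 class against it (0.22 ± 1.00, edgeR adjusted p = 0.906).

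Axin2 was found in 112 of the 6188 kept cells, and 6 of these had 2 UMIs, the most in any cell. Of the 112 cells, 61 (54.5%) were Krt15-dominant, a group that made up 26.2% of cells and 23.6% of UMIs. The corneal class held 39 (34.8%) of them with 66.7% of cells. Cells with an Axin2 UMI had a median of 5942 UMIs and cells without one 5740. After each cell was thinned to 2000 UMIs, 2.08% and 2.55% of Gpha2-class cells in libraries 1 and 2 had an Axin2 UMI, against 0.392% and 0.247% of corneal-class cells. Without thinning the shares were 2.72% and 6.00% against 0.998% and 0.879%, so both libraries kept the same order of classes at equal depth. Thinning left out 5 and 18 cells of the Gpha2 class and 265 and 199 of the corneal class.

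**Figure D2:**
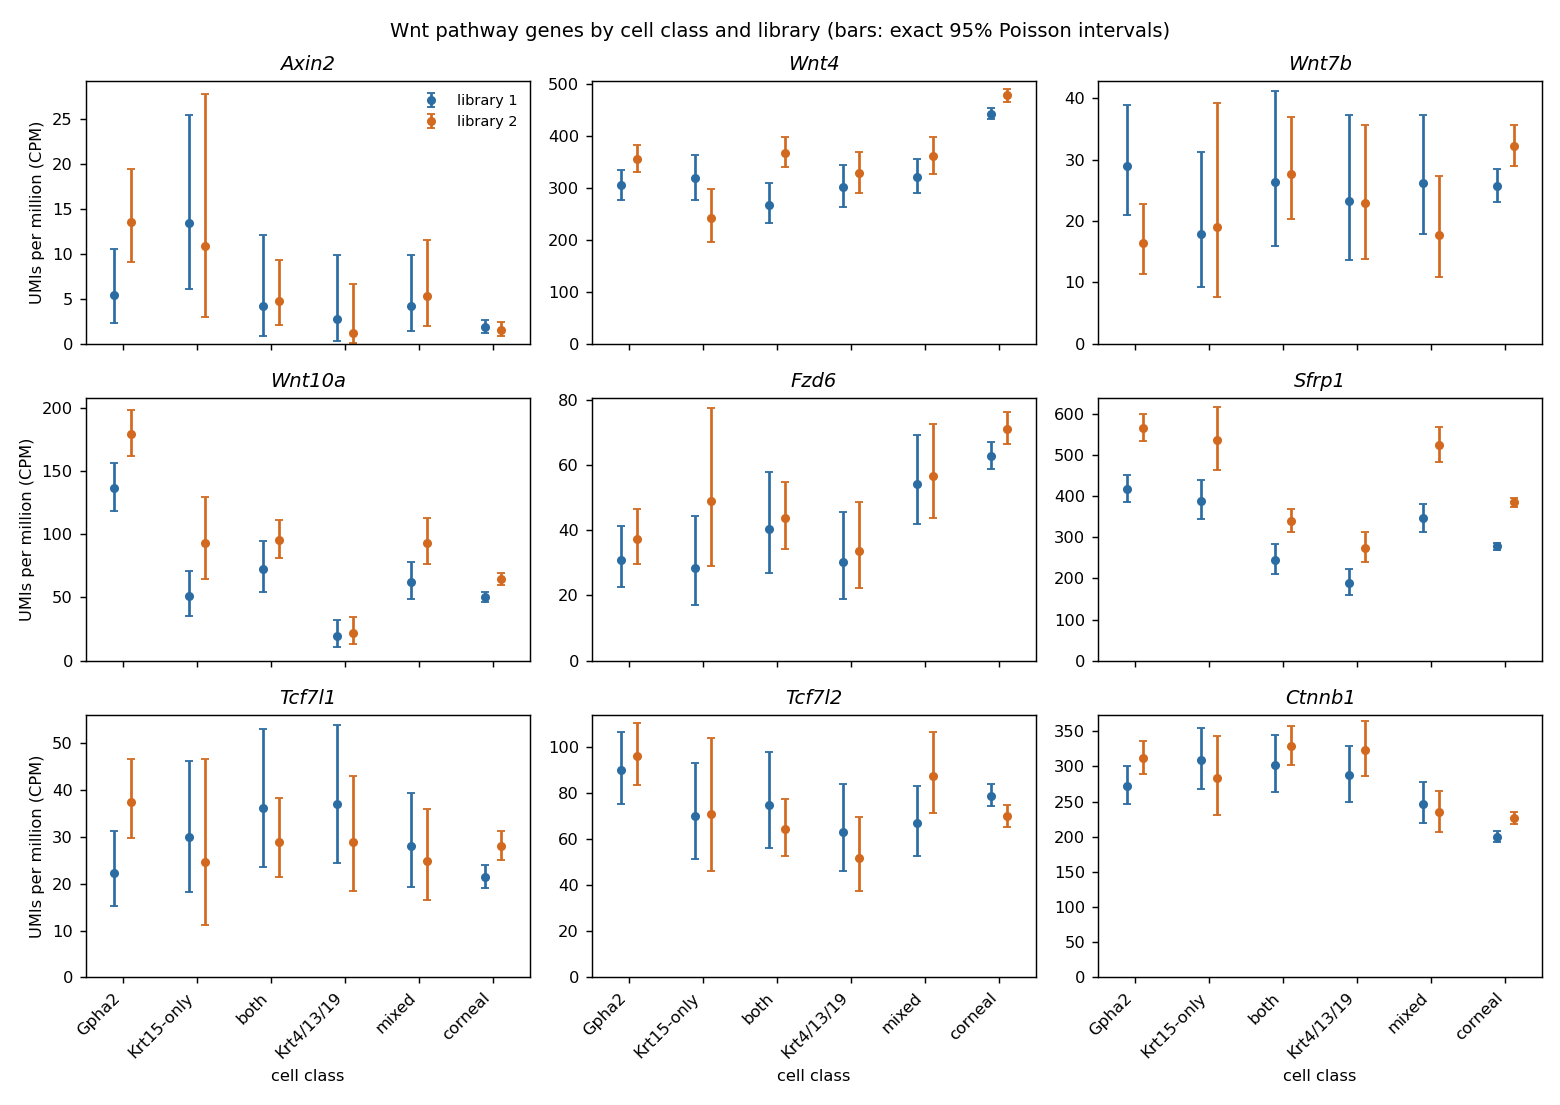
Counts per 1000000 UMIs (CPM, y axis, from 0) for 9 members in 6 cell classes (x axis), with library 1 in blue and library 2 in orange, and bars for exact 95% Poisson intervals. Axin2 is above 10 CPM only in the Gpha2 class of library 2 and in the Krt15-only class, Wnt10a peaks in the Gpha2 class, and Fzd6 and Wnt4 peak in the corneal class.

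Of the 4 ligands among the members, Wnt10a, known from skin appendages and teeth, differed between the classes of Krt15-dominant cells. Its level was 136 CPM (118 to 157) and 179 CPM (162 to 198) in the Gpha2 class, 50.8 (35.2 to 70.9) and 92.6 (64.1 to 129) in the Krt15-only class, and 19.2 (10.5 to 32.2) and 21.7 (12.8 to 34.2) in the Krt4/13/19 class. The corneal class stood between the Gpha2 and Krt4/13/19 classes, at 50.3 (46.6 to 54.1) and 64.5 (60.0 to 69.3). Both Gpha2 sums lay above each sum of these other classes, and both Krt4/13/19 sums below, although the intervals of the Gpha2 class in library 1 and the Krt15-only class in library 2 overlapped.

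Wnt10a was 1.43 ± 0.12 higher on the log2 scale in the Gpha2 class than in the corneal class (SE, n = 2, edgeR adjusted p = 4.43e-12) and 2.91 ± 0.21 higher than in the Krt4/13/19 class (edgeR adjusted p = 5.52e-13). The Krt4/13/19 class was 1.48 ± 0.22 below the corneal class (edgeR adjusted p = 2.19e-06). Against the Krt15-only class the Gpha2 class was 1.21 ± 0.18 higher (edgeR adjusted p = 0.000203), a call lost when library was not held as a block (adjusted p = 0.455). At 2000 UMIs per cell, 20.1% and 26.9% of Gpha2-class cells had a Wnt10a UMI, against 9.32% and 10.0% in the corneal class and 1.75% and 2.14% in the Krt4/13/19 class. Unthinned shares were 40.5% and 49.1%, 23.1% and 29.5%, and 6.67% and 6.33%, in the same order of classes.

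Wnt4, a ligand of many developing epithelia, had its highest level in the corneal class, at 443 CPM (432 to 454) and 478 CPM (465 to 491). The other classes ranged from 242 CPM in the Krt15-only class of library 2 to 368 CPM in the class with both marker sets of library 2, so no sum of another class reached the corneal ones. The log2 difference from the corneal class was -0.50 ± 0.11 in the Gpha2 class (n = 2, edgeR adjusted p = 0.000594), -0.70 in the Krt15-only class (edgeR adjusted p = 0.000206), -0.53 in the Krt4/13/19 class (edgeR adjusted p = 0.000975) and -0.45 in the mixed class (edgeR adjusted p = 0.00991). Without the library block the adjusted p was 0.0673 in the Gpha2 class, 0.0546 in the Krt4/13/19 class and 0.340 in the mixed class, where DESeq2 (0.0958) and thinning (0.0661) also ended the call.

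Wnt7b, the second ligand with moderate counts, did not pass in any of these comparisons. Its level ran from 16.4 CPM in the Gpha2 class of library 2 to 32.2 CPM in the corneal class of library 2. In the Gpha2 class library 1 stood at 28.9 CPM (20.9 to 38.9) and library 2 at 16.4 CPM (11.4 to 22.7), on either side of the corneal 25.6 and 32.2 of their libraries. The log2 difference was accordingly 0.12 in library 1 and -0.98 in library 2, with -0.43 ± 0.21 in both together (edgeR adjusted p = 0.133). In the Krt15-only class (-0.69, edgeR adjusted p = 0.20) it passed once the Krt12 share limits were tightened to 0.2 and 0.9, with -1.36 and an adjusted p of 0.0400.

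Fzd6, a Frizzled receptor known for its part in orienting cells within an epithelial sheet, was higher in the corneal class than in the Krt15-dominant classes. It stood at 62.8 CPM (58.7 to 67.1) and 71.1 CPM (66.3 to 76.1) in the corneal class and at 30.9 (22.6 to 41.2) and 37.4 (29.6 to 46.5) in the Gpha2 class. The Krt4/13/19 class had 30.1 and 33.7 CPM, the Krt15-only class 28.4 and 49.0, the class with both marker sets 40.2 and 43.7, and the mixed class 54.2 and 56.7. No sum of another class reached a corneal one, and the mixed class came nearest. The log2 difference from the corneal class was -0.99 ± 0.15 in the Gpha2 class (n = 2, edgeR adjusted p = 2.46e-06), -1.05 in the Krt4/13/19 class (edgeR adjusted p = 7.76e-05) and -0.90 in the Krt15-only class (edgeR adjusted p = 0.00339), where single libraries gave -1.19 and -0.58. All 9 alternatives kept these 3 calls. The mixed class did not pass (-0.29, edgeR adjusted p = 0.328).

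Sfrp1, which binds Wnt ligands outside the cell, was higher in the Gpha2, Krt15-only and mixed classes and lower in the Krt4/13/19 class. Library 2 exceeded library 1 in each of the 6 classes, by 1.36 to 1.52 times, so levels are read within a library. In library 1 the levels were 417 CPM in the Gpha2 class, 390 in the Krt15-only class, 346 in the mixed class, 279 in the corneal class, 246 in the class with both marker sets and 189 in the Krt4/13/19 class. In library 2 they were 567, 537, 526, 385, 341 and 275 CPM in the same order of classes. The order was thus the same in both libraries. Across libraries, both sums of the Gpha2 and Krt15-only classes stayed above both corneal sums and both Krt4/13/19 sums below them, while the mixed class overlapped with the corneal class. Their counting intervals did not all separate. Those of the Gpha2 and Krt15-only classes in library 1 (385 to 452 and 344 to 440) overlapped that of the corneal class in library 2 (374 to 397). That of the Krt4/13/19 class in library 2 (241 to 314) overlapped that of the corneal class in library 1 (270 to 288).

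The log2 difference of Sfrp1 from the corneal class was 0.54 ± 0.087 in the Gpha2 class (n = 2, edgeR adjusted p = 5.32e-06), 0.45 in the Krt15-only class (edgeR adjusted p = 0.000958), 0.37 in the mixed class (edgeR adjusted p = 0.00579) and -0.50 in the Krt4/13/19 class (edgeR adjusted p = 0.000195). The Gpha2 class exceeded the Krt4/13/19 class by 1.04 ± 0.10 (edgeR adjusted p = 1.29e-09). All 4 differences from the corneal class were lost without the library block, with adjusted p-values of 0.220, 0.416, 0.779 and 0.269 in the same order, and thinning ended the mixed-class call (0.0822). Joining the cells with both marker sets to the Gpha2 class brought its value to 0.29 (adjusted p = 0.0120).

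Ctnnb1, which encodes beta-catenin and serves both Wnt signalling and cell adhesion, was lower in the corneal class than in the Krt15-dominant classes. Its level was 200 CPM (193 to 208) and 227 CPM (218 to 236) in the corneal class and 235 to 247 in the mixed class. In the 4 Krt15-dominant classes it ranged from 273 CPM in the Gpha2 class of library 1 to 329 CPM in the class with both marker sets of library 2. All these sums lay above both corneal sums, although the interval of the Krt15-only class in library 2 (231 to 343) overlapped the corneal one there. The log2 difference from the corneal class was 0.43 ± 0.094 in the Gpha2 class (n = 2, edgeR adjusted p = 0.000445), 0.46 in the Krt15-only class (edgeR adjusted p = 0.00277) and 0.54 in the Krt4/13/19 class (edgeR adjusted p = 9.88e-05). Thinning ended the Gpha2 call (0.34, adjusted p = 0.0636). In the Krt15-only class the missing library block ended it (adjusted p = 0.0785) and library 2 alone gave 0.27.

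The Tcf7l1 and Tcf7l2 factors, which bind TCF/LEF motifs and act with or without beta-catenin, moved less. Tcf7l1 stood between 21.4 and 37.4 CPM in the 12 sums, with overlapping classes, and passed in no comparison. Its log2 difference between the Gpha2 and corneal classes was 0.28 ± 0.20 (n = 2, edgeR adjusted p = 0.314). Tcf7l2 was 90.1 CPM (75.5 to 107) and 96.3 CPM (83.6 to 110) in the Gpha2 class, 79.0 and 70.1 in the corneal class, and 63.0 (46.1 to 84.0) and 51.7 (37.4 to 69.7) in the Krt4/13/19 class. Both Gpha2 sums lay above all other sums of this gene, although their intervals overlapped that of the mixed class in library 2 (87.7 CPM, 71.3 to 107). Tcf7l2 was higher in the Gpha2 class than in the Krt4/13/19 class by 0.67 ± 0.19 (edgeR adjusted p = 0.00937), and by 1.08 after thinning. That call was lost with DESeq2 (adjusted p = 0.0679), without the library block (0.0539) and with the both-marker cells joined in (0.0556). Against the corneal class it did not pass (0.30 ± 0.13, edgeR adjusted p = 0.0784).

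Depth and other measures moved with these classes. Median UMIs per cell were 4640.5 and 4742.5 in the Gpha2 class, 4536 and 3015 in the Krt15-only class, and 5784.5 and 6375 in the corneal class. The median mitochondrial share was 3.42% and 4.42% in the Gpha2 class and 2.49% and 3.15% in the corneal class, and the share of S-phase genes among phase-gene UMIs was 18.7% and 16.3% against 20.2% and 20.4%. Shallow cells reach 2 Gpha2 UMIs less easily, and thinning before sorting put 264 and 254 cells in the Krt15-only class. A mitochondrial limit of 10% kept each of the members' calls in all 6 class comparisons. The part of these measures in the other results was not tested.

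The class with both marker sets was not tested against the others, and its members' levels are given as ratios with exact counting intervals. Its Wnt10a level was 0.529 (0.382 to 0.720) of that in the Gpha2 class in library 1 and 0.533 (0.441 to 0.642) in library 2. Against the Krt4/13/19 class the ratios were 3.76 (2.05 to 7.35) and 4.42 (2.71 to 7.64), so both libraries placed it between the classes whose markers it carried. Sfrp1 also lay between, at 0.588 (0.495 to 0.696) and 0.60 (0.543 to 0.663) of the Gpha2 class. Fzd6 did not separate the class from the Gpha2 class, with ratios of 1.30 (0.788 to 2.12) and 1.17 (0.840 to 1.62). Cells with both marker sets were deeper, with medians of 6362 and 6227.5 UMIs, against 4640.5 and 4742.5 in the Gpha2 class and 5552 and 5354.5 in the Krt4/13/19 class. No doublet caller was run, and the part of depth or doublets in these levels was not tested.

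Along the Krt12 share itself, Axin2 stood at 6.22 CPM (18 UMIs) and 8.56 CPM (40 UMIs) below a share of 0.2 and at 1.66 CPM (20 UMIs) and 1.17 CPM (12 UMIs) above 0.95. The 4 bins between held 2 to 5 Axin2 UMIs per library, and their intervals overlapped each other. Wnt4 stood at 304 and 353 CPM below 0.2 and at 446 and 485 CPM above 0.95. Fzd6 stood at 32.5 and 41.1 CPM below 0.2 and at 61.9 and 73.5 CPM above 0.95. It did not rise evenly, with 68.3 and 53.1 CPM from 0.8 to 0.95. Ctnnb1 ran the other way, from 289 and 321 CPM to 198 and 228 CPM. Wnt10a stood at 91.6 and 123 CPM below 0.2, a bin that joins the high Gpha2 class with the low Krt4/13/19 class, and at 47.7 and 64.5 CPM above 0.95.

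**Figure D3:**
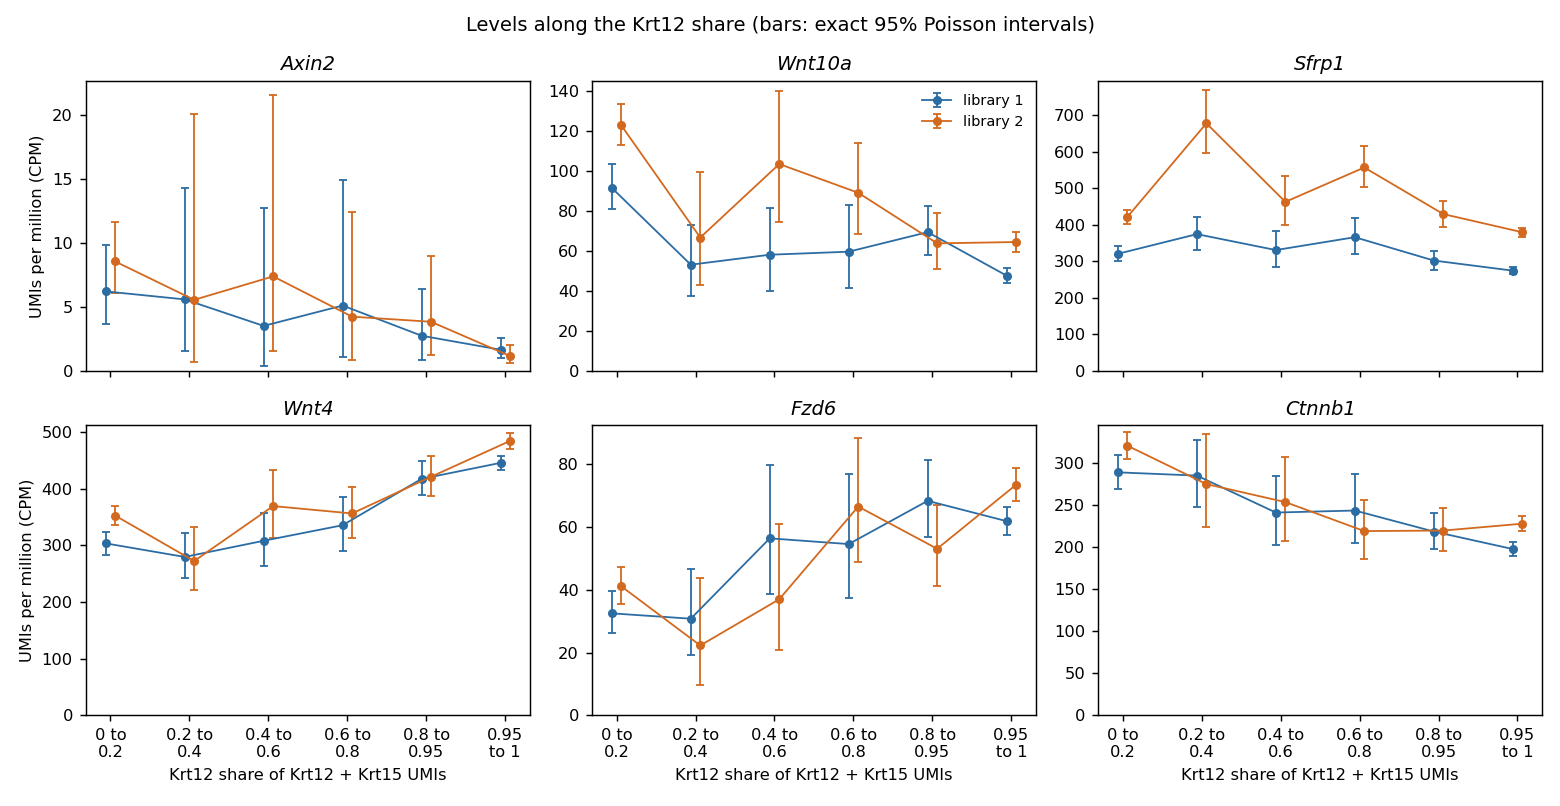
CPM (y axis, from 0) of 6 members in 6 bins of the Krt12 share of Krt12 and Krt15 UMIs (x axis), by library, with exact 95% Poisson intervals. Wnt4 is highest in the bin with most Krt12, and Ctnnb1 and Axin2 in the bin with least. Fzd6 is highest from 0.8 to 0.95 in library 1 and above 0.95 in library 2.

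RNA free in the suspension was gauged in 21 cells with immune markers (at least 3 UMIs) and fewer than 10 UMIs of Krt5 and Krt14, 5 in library 1 and 16 in library 2, with a median of 1813 UMIs. Of their 46498 UMIs, 3 were Ctnnb1 (64.5 CPM, interval 13.3 to 189) and 0 belonged to any of the other 9 members. Whether the Ctnnb1 UMIs were free RNA or the cells' own cannot be told from these counts. A count of 0 allows up to 64.5 CPM there, and up to 14.3% of these cells with a UMI. That limit lies below the levels of Wnt4 and Sfrp1 in each class and of Wnt10a in the Gpha2 class, and above those of Axin2, Wnt7b and Tcf7l1 in each class, for which these cells were too few.

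Between the libraries, with 1 sample a side and counting error only, Wnt10a in library 2 was 1.42 (1.31 to 1.53) times its level in library 1 over all kept cells and Sfrp1 1.39 (1.35 to 1.44) times. Within classes the Wnt10a ratio ranged from 1.13 to 1.82. Axin2 over all kept cells was 1.34 (0.917 to 1.96) times as high in library 2, and in the Gpha2 class 2.52 (1.12 to 6.38) times. The Gpha2 class held 450 of 3001 kept cells in library 2 and 294 of 3187 in library 1. A difference in handling and a difference between animals cannot be told apart here.

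Cell-cycle phase was compared within the corneal class and within all Krt15-dominant cells. Cells with at least 10 UMIs of a 42-gene S-phase list and a 52-gene G2/M list were ranked by the S share within each library, and equal numbers at either end were summed as S-rich and G2/M-rich, 743 and 587 cells per end in the corneal class and 216 and 297 in the Krt15-dominant cells. The same 9 members were tested among 10646 genes. In the corneal class 0 members were higher and 2 lower in S-rich cells (Fzd6 and Sfrp1), against 10.6% and 8.24% of all genes (18.9% either way). In Krt15-dominant cells 1 was higher (Wnt4) and 0 lower, against 6.22% and 5.36% of all genes (11.6% either way). With library sizes alone in place of TMM scaling, the share of calls that were higher in S-rich corneal cells moved from 56.4% to 40.6%.

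In the corneal class Sfrp1 was 243 CPM in S-rich and 357 CPM in G2/M-rich cells of library 1, and 353 and 445 CPM in library 2. G2/M-rich cells were higher within each library, by 0.36 ± 0.10 on the log2 scale (n = 2, edgeR adjusted p = 0.0136). Fzd6 was 48.5 and 80.2 CPM in library 1 and 66.8 and 80.9 CPM in library 2, and it was 0.42 ± 0.14 higher in G2/M-rich cells (edgeR adjusted p = 0.0335), with differences of 0.65 and 0.20 in the single libraries. Tcf7l2 was 68.3 and 91.8 CPM in library 1 and 61.0 and 80.6 CPM in library 2, which did not pass (edgeR adjusted p = 0.0624) but did with library sizes alone (0.0183) or no filter (0.0469). DESeq2 gave adjusted p-values of 0.128 for Sfrp1 and 0.395 for Fzd6, and the fit without the library block 0.374 and 0.243, so both calls ended there.

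In Krt15-dominant cells Wnt4 was 303 CPM in S-rich and 256 CPM in G2/M-rich cells of library 1, and 383 and 290 CPM in library 2. S-rich cells were higher in both, by 0.37 ± 0.10 (n = 2, edgeR adjusted p = 0.0250), a call lost with DESeq2 (0.141) and without the library block (0.20). In the corneal class Wnt4 differed by 0.01 ± 0.093 (edgeR adjusted p = 0.943). The difference between these effects, tested as an interaction, was 0.35 ± 0.14 for Wnt4 (edgeR adjusted p = 0.939), so it was not shown to differ between the lineages. Over all genes 0 interactions passed with edgeR, where 563 had an unadjusted p under 0.05, and 0 with DESeq2, where 124 did. Axin2 held 7 and 3 UMIs in G2/M-rich and 9 and 4 in S-rich corneal cells, too few to read a phase difference.

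**Figure D4:**
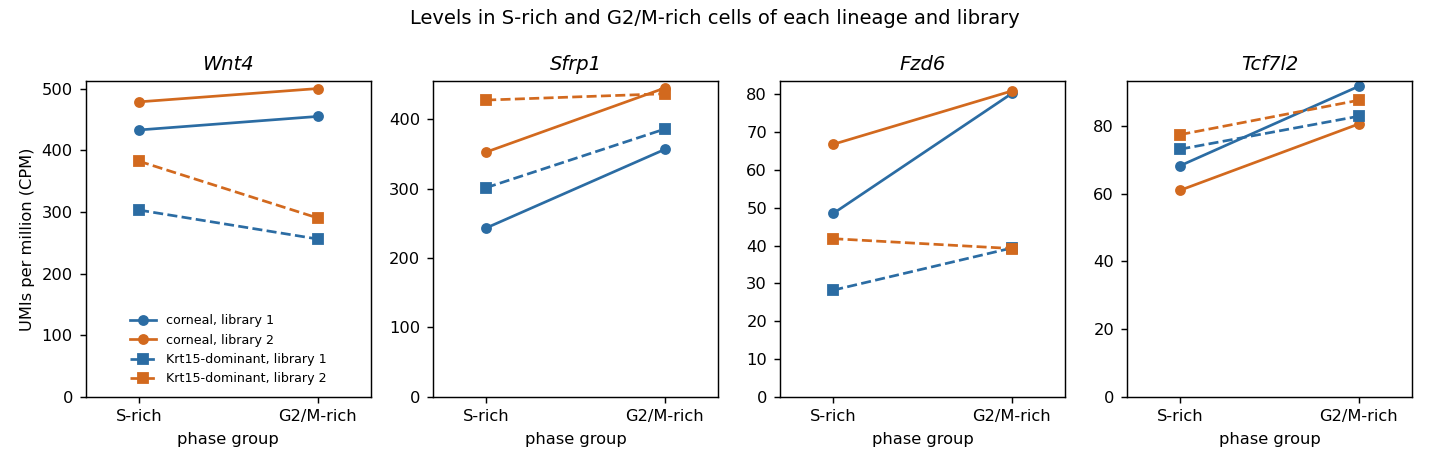
CPM (y axis, from 0) of Wnt4, Sfrp1, Fzd6 and Tcf7l2 in S-rich and G2/M-rich cells (x axis), with lines joining the sums of 1 library, blue for library 1 and orange for library 2, solid for the corneal class and dashed for Krt15-dominant cells. In both libraries the G2/M-rich points of Sfrp1, Fzd6 and Tcf7l2 lie above the S-rich ones in the corneal class, and those of Wnt4 lie below in Krt15-dominant cells.

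A wider list of 86 other Wnt pathway genes was set beside the members. Of these 42 passed the filter on low counts and were tested in the Gpha2 class against the corneal class, and 12 were higher, 11 lower and 19 did not pass, where 15.1% and 13.9% of all genes were higher and lower, with a median log2 fold change of 0.12. Without the library block 7 were lower, and the calls of Ccnd1 (adjusted p = 0.0510), Apc (0.0546) and Csnk1a1 (0.0724) were among those lost. By role, 7 of 11 receptors tested were higher and 1 lower, 2 of 3 ligands were higher and 1 lower, and 0 of 12 cytoplasmic components were higher and 4 lower. Fzd10, called higher, reached the low-count cutoff of 8.73 CPM only in both Gpha2 sums and the Krt15-only sum of library 2. Fzd1, Fzd7, Lrp5 and the ligand Wnt5b, also called higher, reached it in no corneal sum. The counts for receptors and ligands thus depend in part on the filter. DESeq2 did not call 3 of the 7 receptors, with adjusted p-values of 0.0642 for Fzd10, 0.0819 for Lrp5 and 0.0803 for Ryk, and Ryk was also lost without the block (0.0762).

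Of 15 other target genes on the list 4 were tested, and 1 passed, Ccnd1, the gene of cyclin D1, which was lower in the Gpha2 class (-0.48, edgeR adjusted p = 0.000551). The log2 difference was positive for Rnf43 (0.62, edgeR adjusted p = 0.0580), Myc (0.51, edgeR adjusted p = 0.101) and Znrf3 (0.46, edgeR adjusted p = 0.343), none of which passed. The other 11 did not pass the filter on low counts, and 2 of them had no UMI. In 6 of the 11 the Gpha2 class stood above the corneal class in both libraries, and in 2 below it, with no test. No share over all genes of such low counts stands beside these numbers, so they are not read as a result about target genes. Tcf7, a TCF factor with 58 UMIs over all kept cells, stood at 4.03 and 5.14 CPM in the Gpha2 class and at 0.505 and 0.693 CPM in the corneal class. Lef1 (16 UMIs) stood at 2.69 and 1.40 against 0.361 and 0.260 CPM, and Tnfrsf19 (18 UMIs) at 1.34 and 3.74 against 0.0722 and 0 CPM. Apcdd1, Notum and Sp5, with 18, 10 and 7 UMIs, were the others above, and Nkd2 and Nkd1, with 14 and 3 UMIs, were below. These genes are named after their values were seen, and most of their sums held only a few molecules.

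The highest fold changes among the other genes were those of Tle1, a Groucho co-repressor that binds TCF factors, and Sostdc1, a secreted Wnt and BMP antagonist. Tle1 stood at 22.9 and 39.3 CPM in the Gpha2 class and 1.66 and 1.56 CPM in the corneal class, a log2 difference of 4.22 ± 0.30 (n = 2, edgeR adjusted p = 1.38e-13). Sostdc1 stood at 70.6 and 76.6 against 3.68 and 4.76 CPM, a difference of 4.08 ± 0.19 (edgeR adjusted p = 1.89e-18). The ligand Wnt5b stood at 24.2 and 38.8 against 2.24 and 2.60 CPM, a difference of 3.64 ± 0.29 (edgeR adjusted p = 2.13e-12). In each of these genes both Gpha2 sums lay far above both corneal sums, which did not reach the low-count cutoff of 8.73 CPM. All sums of the other Krt15-dominant classes also lay above the corneal ones, so the rise was not particular to the Gpha2 class. For Wnt5b, however, the Krt4/13/19 class stood at 2.74 CPM in library 1, close to the corneal sums, and at 18.0 CPM in library 2. The Krt15-only class stood at 31.4 and 24.5 CPM for Tle1, 44.8 and 62.6 for Sostdc1, and 14.9 and 24.5 for Wnt5b.

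The receptors Fzd7, Fzd2 and Fzd1 were higher by 2.00, 1.33 and 1.32, Lgr4, a receptor for R-spondins, by 1.47, and the ligand Wnt6 by 1.43. Wnt6 stood at 35.6 and 36.4 CPM in the Gpha2 class but at 10.5 and 8.17 CPM in the Krt15-only class and at 5.48 and 1.20 CPM in the Krt4/13/19 class. It was thus, with Wnt10a, higher in the Gpha2 class than in each of those classes, by 1.87 ± 0.41 (n = 2, edgeR adjusted p = 0.0233) and 3.43 ± 0.47 (edgeR adjusted p = 8.23e-07). Wnt6 and Wnt10a are neighbouring genes in the mouse genome.

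Lower in the Gpha2 class was the receptor Fzd4, at 2.02 and 0.467 CPM against 10.3 and 11.5 CPM, a log2 difference of -3.28 ± 0.56 (n = 2, edgeR adjusted p = 1.32e-05). Porcn, the enzyme that adds the lipid Wnt ligands need for secretion, stood at 2.02 and 0.935 against 10.5 and 9.61 CPM, a difference of -2.84 ± 0.53 (edgeR adjusted p = 4.56e-05). Fzd4 and Porcn reached the low-count cutoff of 8.73 CPM in the corneal sums alone, where they were high. With no filter their edgeR adjusted p-values were 2.53e-08 and 8.55e-07. Both also lay below the corneal sums in the other Krt15-dominant classes, at most 2.99 CPM for Fzd4 and 6.01 CPM for Porcn. The ligand Wnt3a stood at 1.34 and 3.74 against 11.7 and 15.8 CPM, a difference of -2.41 ± 0.42 (edgeR adjusted p = 2.13e-05), and reached the cutoff in both corneal sums and 1 mixed sum. Dkk3, a relative of the Dickkopf inhibitors, was lower by 1.38, and Ctnnbip1, which blocks binding of beta-catenin to TCF factors, by 1.01. The co-repressor Tle4, Amer1 and the tankyrase Tnks2, the last 2 acting on the beta-catenin destruction complex, were lower by 0.75, 0.75 and 0.54. The Tle4 call was lost with DESeq2 (adjusted p = 0.0600) and without the library block (0.0686), and that of Tnks2 after thinning (0.119).

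**Figure D5:**
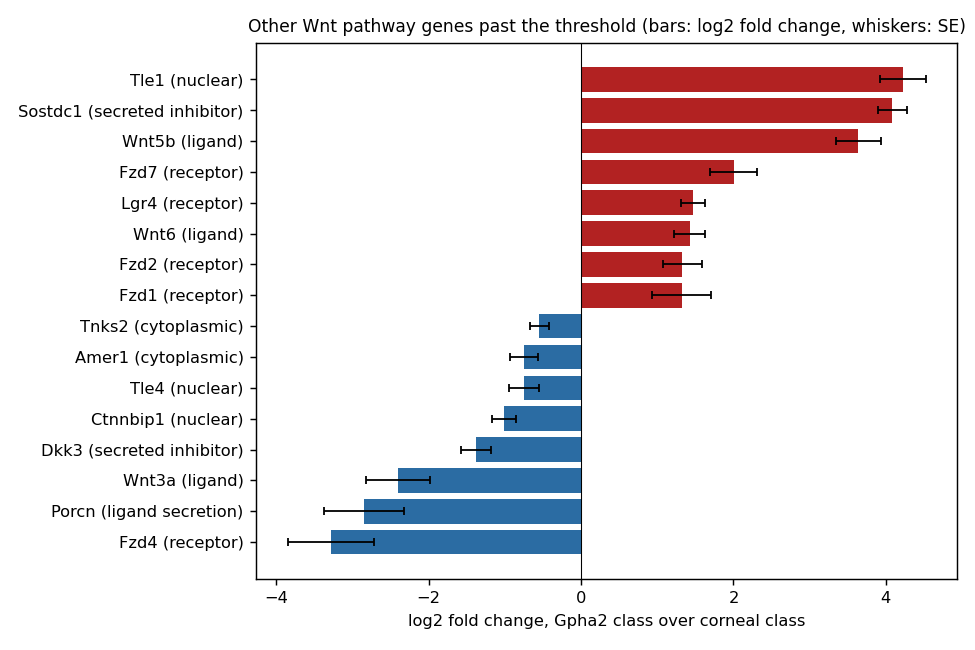
Log2 fold changes (x axis) of the Gpha2 class over the corneal class for the 8 other Wnt pathway genes with the largest increase and the 8 with the largest decrease among those past an adjusted p of 0.05, with role in brackets and whiskers for SE. Tle1, Sostdc1 and Wnt5b are above 3.6, and Fzd4, Porcn and Wnt3a below -2.4.

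In the other comparisons with the corneal class, 7 of the 42 were higher and 6 lower in the Krt15-only class, where 8.30% and 7.25% of all genes were. In the Krt4/13/19 class 7 were higher and 8 lower, beside 15.7% and 12.5% of all genes, and in the mixed class 3 and 2, beside 4.78% and 2.95%. Over cell-cycle phase 47 were tested. In corneal S-rich cells 2 were higher and 5 lower, beside 10.6% and 8.24% of all genes. In Krt15-dominant S-rich cells, where 6.22% and 5.36% of all genes were higher and lower, 1 was higher, Ccnd1 (0.91 ± 0.16, n = 2, edgeR adjusted p = 0.00610), and 2 were lower, Sostdc1 (-1.50 ± 0.20, edgeR adjusted p = 1.83e-05) and Fzd2 (-1.90 ± 0.30, edgeR adjusted p = 0.000152). These 3 genes are named for their small number, after their values were seen.

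Genes whose levels followed a member's most closely over the 12 sums, centred within each library, were found among those with at least 300 UMIs. For Axin2 these were B230219D22Rik (r = 0.936), Cbx6 (0.930) and Rnf130 (0.910), for Wnt10a Hspa8 (0.979), Dlk2 (0.953) and Vegfb (0.952), and for Fzd6 Cops6 (0.976), Bcl2l13 (0.968) and Cyp3a13 (0.956). For Sfrp1 they were Eid1 (0.933), Tcf4 (0.931) and Rgma (0.931), for Wnt4 Pfdn4 (0.946), Smim8 (0.943) and Rnf114 (0.938), and for Ctnnb1 Sh3rf2 (0.976), Ociad2 (0.962) and Scand1 (0.937). For Tcf7l2 they were Rpl37a (0.932), Igf1r (0.915) and Hist1h2ap (0.910). For Wnt7b they were Phldb3 (0.864), Hibadh (0.853) and Xpot (0.850), and for Tcf7l1 Clk3 (0.862), 5730480H06Rik (0.834) and Ecm1 (0.832). The Axin2 values rest on 117 UMIs over the 12 sums, down to 1 UMI in a sum, so counting error weighs on them. All these values describe 12 sums that share libraries and classes, and each was among the 3 highest of 8437 genes compared (8438 for Axin2).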

How the data were processed

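Single-cell libraries from sorted corneal epithelium of CycB1-GFP mice were deposited as 1 matrix of raw UMI counts, which the authors made with Cell Ranger 3.1.0 on GRCm38 (mm10), and Seurat 5.0.0 is also listed, per the submitters' processing notes. Cell calling, aggregation settings and doublet removal are not given in the sources used. Barcodes with fewer than 500 genes (475) or at least 20% mitochondrial UMIs (311) were left out. No doublet caller was run, and an alternative left out the 3% of cells with most UMIs in each library. The members, lists and classes were chosen with earlier results of these data known.

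Raw counts were summed per library and class, keeping classes of 50 or more cells per library, and tested with edgeR 4.0.16 (R 4.3.3): TMM scaling, its default filter on low counts, robust quasi-likelihood test, library as a block, Benjamini-Hochberg adjustment over all genes. The block follows from the sums, since those with the same library number come from the same sample. SEs were derived from the log2 fold change and the F statistic. Alternatives were DESeq2 1.42.0, library sizes alone, no filter, no library block, single libraries, a mitochondrial limit of 10%, both-marker cells joined to the Gpha2 class, share limits of 0.2 and 0.9, thinning to 2000 UMIs, and no top 3%. Intervals are exact 95% Poisson, binomial or Clopper-Pearson intervals (Python 3.11.15, scipy 1.17.1), and the limit for a count of 0 is 3 counts. Among other pathway genes, the 8 per direction with the largest fold change past the threshold in the Gpha2 class against the corneal class were named. For genes with a like pattern, the 3 with the highest Pearson r of log2 CPM were named.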

Additional observations from a re-analysis of the deposited data

How the results depend on the processing

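Over the members' fold changes, 584 values under the tested alternatives stayed on their side of the threshold, 27 fell short of it and 4 newly passed. Of called values 0 turned direction. Some values that were not called did, such as Fzd6 in the mixed class against the corneal class (-0.29, and up to 0.13 under an alternative). Of the single-library values 100 lay within 1 SE of the pooled value and 62 did not. The low counts limit Axin2 most, since 118 UMIs over 12 sums leave SEs of 0.45 and more on the log2 scale. Without the library block, which pairs sums of 1 library, all genes past the threshold numbered 1403 in the Gpha2 class against the corneal class (2723 with it), 650 in the Krt15-only class (1460), 1535 in the Krt4/13/19 class (2648), 169 in the mixed class (726), 775 in the Gpha2 against the Krt4/13/19 class (1673) and 4 in the Gpha2 against the Krt15-only class (42), and 692 and 599 over phase in corneal and Krt15-dominant cells (2010 and 1233). Members lower were then 1 in the Gpha2 class, 2 in the Krt4/13/19 class and 0 in the mixed class, and members higher 1 in the Krt15-only class, 0 in the mixed class, 2 in the Gpha2 against the Krt4/13/19 class and 0 against the Krt15-only class. Without the block 0 members passed over phase in either lineage, and 7 other pathway genes were lower in the Gpha2 class, with 0 higher and 1 lower in corneal S-rich cells. DESeq2 called 1707 genes in the Gpha2 class, 1752 in the Krt4/13/19 class, 391 in the mixed class, 1037 in the Gpha2 against the Krt4/13/19 class, and 684 and 594 over phase. It called 0 members lower in the mixed class, 2 higher in the Gpha2 against the Krt4/13/19 class and 0 over phase, with 0 other pathway genes higher and 1 lower in corneal S-rich cells. Of its calls 79.5% were higher in the mixed class (61.8% with edgeR) and 17.1% in the Gpha2 against the Krt15-only class (33.3%). Library sizes alone gave 0 other pathway genes higher and 8 lower in corneal S-rich cells. No filter on low counts gave 94 genes in the Gpha2 against the Krt15-only class, 12 interactions, and 2 other pathway genes higher in Krt15-dominant S-rich cells. Joining both-marker cells to the Gpha2 class gave 1115 genes and 2 members higher against the Krt4/13/19 class and 6 genes against the Krt15-only class. Thinning, under which Axin2 no longer passed the filter and the both-marker class had too few cells, gave 1377, 1298, 227, 725 and 23 genes in the Gpha2, Krt4/13/19 and mixed classes and in the Gpha2 class against the Krt4/13/19 and Krt15-only classes. It left 2 members higher and 7 other pathway genes lower in the Gpha2 class, and 0 members higher and 0 lower in the mixed class. Thinned to 3000 UMIs, 34.8% of Gpha2-class and 16.1% of corneal-class cells had a Wnt10a UMI as means of the 2 libraries, and unthinned 44.8% and 26.3%. The unthinned Axin2 share of the corneal class was 0.938%. The cause of these changes was not tested. Thinning lowered depth and also moved cells between classes, leaving 195 and 378 cells in the Gpha2 class, and these effects were not tested apart.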
